A study of Mus musculus with 12 samples.

Results

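The 10 transcription factor genes of the hematopoietic stem cell (HSC), namely Tal1, Lyl1, Lmo2, Gata2, Runx1, Erg, Fli1, Gfi1b, Mecom and Hlf, were taken as a named list from the 49585 genes with counts. No rule on their values was used, but earlier results of these data were known. HSCs were sorted as Lin-, Sca1+, ckit+, CD135- and CD150+ cells, a gate that holds LT-HSCs and MPP2 cells, from bone marrow of 6 WT and 6 Pon2-/- mice on the C57BL/6J background, aged 10 to 14 weeks. The labels name no treatment. WT mice came from a commercial breeder, and Pon2-/- mice carry a loxP-flanked gene trap with the β-geo marker in the second intron of Pon2 in all their cells. Each sample is 1 mouse, for which 8 wells of 10 cells were sequenced with Smart-seq2, a full-length cDNA method that keeps no strand. The comparison asks whether loss of the antioxidative enzyme Pon2 goes along with another level of the factors that define the stem cell.

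As background, these factors bind regulatory DNA of stem and progenitor cells, many of them at the same elements, where they keep genes of the stem cell state active and hold back lineage programs. Tal1 and Lyl1 are related basic helix-loop-helix proteins that pair with E proteins to bind E-boxes, and Lmo2 is a LIM-only adaptor that links them through Ldb1 to Gata2, a zinc finger protein. Erg and Fli1 belong to the ETS family, Runx1 is the DNA-binding partner of Cbfb, Gfi1b is a repressor that recruits Kdm1a and Rcor1, Mecom holds a PR domain, and Hlf is a PAR bZIP factor used as a marker of HSCs.

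Start-site windows from RefSeq (GRCm38.p6) were at hand for 8 of the 10 genes, with 14 windows of 250 bases before a start. They were searched on both strands for 6 short motifs, none of which contains another: GATAA for GATA factors, CAGNTG as an E-box, GGAAG for ETS factors, TGTGGT for Runx factors, AAATCA for Gfi factors and TTANNTAA for PAR bZIP factors. The windows before Lyl1, Gfi1b, Tal1 and Gata2 are shown because Lyl1 and Tal1 are paralogs with far apart levels, because the Gfi1b window holds the letters of its own family, and because Gata2 gave the strongest relation between members. Capitals mark the motifs found, and each window is written 5′ to 3′ on the strand of its gene. They lie at chr8:84701207-84701456 (plus strand) for Lyl1, chr4:115056176-115056425 (plus strand) for Tal1, chr2:28621983-28622232 (minus strand) for Gfi1b and chr6:88193641-88193890 (plus strand) for Gata2.
Lyl1: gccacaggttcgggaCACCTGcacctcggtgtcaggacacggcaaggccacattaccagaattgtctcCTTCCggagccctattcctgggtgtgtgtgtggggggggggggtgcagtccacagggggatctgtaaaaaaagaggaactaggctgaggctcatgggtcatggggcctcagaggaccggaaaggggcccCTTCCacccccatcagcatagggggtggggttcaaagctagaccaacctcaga
Tal1: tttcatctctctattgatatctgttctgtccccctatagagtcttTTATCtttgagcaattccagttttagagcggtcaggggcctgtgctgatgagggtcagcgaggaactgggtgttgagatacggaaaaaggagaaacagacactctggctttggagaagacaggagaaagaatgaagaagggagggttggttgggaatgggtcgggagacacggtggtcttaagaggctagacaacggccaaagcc
Gfi1b: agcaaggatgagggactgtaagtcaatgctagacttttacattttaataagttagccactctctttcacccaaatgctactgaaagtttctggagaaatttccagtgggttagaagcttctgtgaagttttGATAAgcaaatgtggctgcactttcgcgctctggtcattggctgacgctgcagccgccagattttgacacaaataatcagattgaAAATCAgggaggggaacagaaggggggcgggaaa
Gata2: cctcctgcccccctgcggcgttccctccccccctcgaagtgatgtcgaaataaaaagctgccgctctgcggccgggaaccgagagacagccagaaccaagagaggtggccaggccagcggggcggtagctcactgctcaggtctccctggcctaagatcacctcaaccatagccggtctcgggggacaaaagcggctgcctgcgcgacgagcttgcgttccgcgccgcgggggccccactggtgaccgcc
Tal1 and Gata2 have a second window each, not shown, of which that of Tal1 holds 1 ETS motif and no GATA motif. The window of Lyl1 holds 1 E-box and 2 ETS motifs, the one shown for Tal1 holds 1 GATA motif, and that of Gfi1b holds 1 GATA and 1 Gfi motif. The one shown for Gata2 holds 0 of the 6 motifs. Over the 14 windows, the ETS motif was in 7, the GATA motif and the E-box in 5 each, the Gfi motif in 2, the PAR bZIP motif in 2 and the Runx motif in 0. Among all 32851 windows of the same length, 64.1% held the ETS motif, 44.8% the E-box, 22.6% the GATA motif, 14% the Runx motif, 12.4% the Gfi motif and 5.43% the PAR bZIP motif. These matches describe letters and are no evidence of binding.

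Before the factors, the labels and cells were checked. Total counts on genes were 12967791 to 24228280 in WT and 14671353 to 23122382 in Pon2-/- samples. Values are CPM, the reads of a gene in 1000000 after TMM scaling. Pon2 itself ranged from 56.4 to 202 CPM in WT and from 1.16 to 33.1 CPM in Pon2-/- samples, without overlap. Its log2 fold change was -2.13 (edgeR, unadjusted p = 0.00222, adjusted p = 0.586, exact permutation p = 0.00216). The edgeR test thus did not call the disrupted gene itself after adjustment. All 9 HSC markers of a list with Kit, Ly6a, Slamf1 and Procr were detected in all 12 samples. Their summed level was 1666 to 2149 CPM in WT and 1523 to 2132 CPM in Pon2-/- samples. Some genes from marker lists of other cell types were also detected. Of the granulocyte list, 8 of 10 markers were past the filter on low counts and 0 of 10 were at 0. Their summed levels were 878 to 12026 CPM in WT and 830 to 19185 CPM in Pon2-/- samples. Summed levels of erythroid markers were 9.16 to 61.8 and 16.4 to 47.0 CPM, with 3 of 10 at 0. Of this list, the β-globin gene Hbb-bt did not overlap between the genotypes, as was so for 0.633% of all tested genes. It had 6.11 to 38.1 CPM in WT and 0 to 1.11 CPM in Pon2-/- samples (edgeR, unadjusted p = 0.000829, adjusted p = 0.265). Its exact permutation p of 0.00216 (adjusted 0.342) is that of any gene without overlap. Those of T cell markers were 0.0424 to 39.7 and 19.0 to 57.9 CPM, with 4 of 10 (Cd3e, Cd8a, Trac and Cd5) at 0. Summed levels of B cell markers were 30.3 to 419 and 58.8 to 938 CPM, and those of megakaryocyte markers 217 to 283 and 149 to 334 CPM. Those of stroma and endothelium were 47.7 to 193 and 66.8 to 158 CPM, with the endothelial Cdh5 and Kdr at 0. Of this last list, Emcn alone had a mean of 83.5 CPM in WT and 82.5 CPM in Pon2-/- samples. Whether such cells were among those sorted, and their part in the results, was not tested. Counts of Y-linked genes were present in 3 WT and 4 Pon2-/- samples, and the labels give no sex. In bulk samples, fewer cells that express a gene and less RNA per cell cannot be told apart.

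All 10 factors were detected in every sample, with 90 to 12746 counts. Together they took 0.174% to 0.216% of the counts in WT and 0.173% to 0.231% in Pon2-/- HSCs. None of them passed the test between the genotypes. With edgeR's quasi-likelihood test and Benjamini-Hochberg adjustment over 11848 tested genes, 0 of 10 factors passed an adjusted p of 0.05 (the lowest was 1.00), while 25 genes or 0.211% of all tested genes did. At an unadjusted p below 0.05 it was also 0 of 10, against 3.13% of all genes. DESeq2 with default settings (1.87% of its genes called), DESeq2 without Cook's cutoff (3.88%) and limma voom with sample quality weights (0.211%) called 0 of 10 as well. For 0 of 10 factors did the genotypes lie apart without overlap (0.633% of all genes), and 0 of 10 had an exact permutation p below 0.05 (5.87% of all genes). That test runs over 924 assignments of the samples, and its smallest possible p is 0.00216. Log2 fold changes of Pon2-/- over WT were above 0 for 7 factors and below 0 for Mecom, Tal1 and Fli1, with a median of 0.15 (-0.01 over all tested genes). The median absolute log2 fold change was 0.26, compared with 0.32 over all tested genes. For 7 of 10 factors, the 95% interval of the fold change lay within 2-fold in either direction, and for Runx1, Tal1 and Gfi1b it did not.

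**Figure D1:**
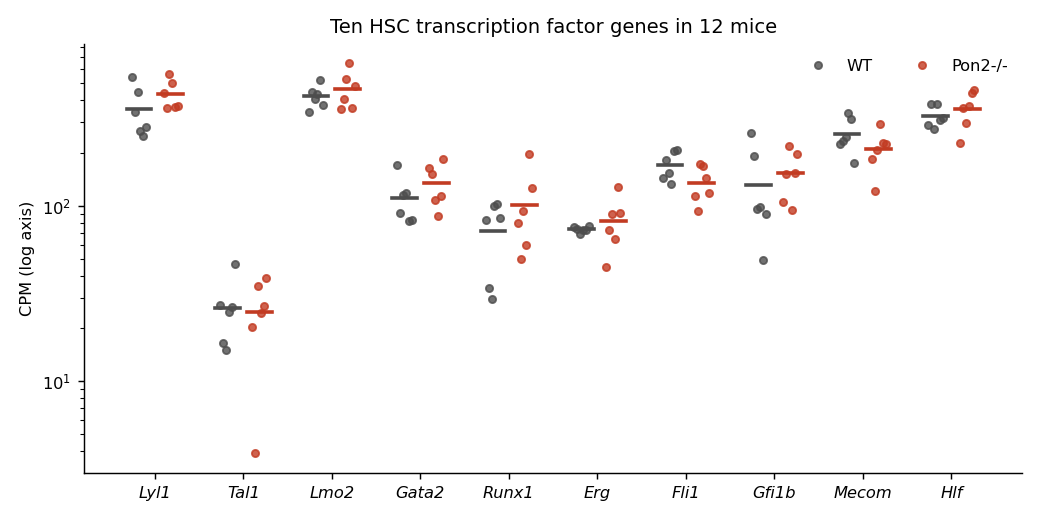
CPM (log axis) of the 10 factors in each of 6 WT (grey) and 6 Pon2-/- samples (red), each point 1 mouse and each bar the mean of a genotype. The genotypes overlap for every factor, WT samples of Erg lie close together at 69.0 to 77.1 CPM, and 1 Pon2-/- sample of Tal1 lies apart at 3.88 CPM.

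Among the subunits of the Tal complex, Lyl1 (ENSMUSG00000034041.4, chromosome 8 from 84701457 to 84704715, plus strand, GRCm38) was 251 CPM in the lowest, 310.4 CPM in the median and 541 CPM in the highest WT sample. Pon2-/- samples had 360.4, 404 and 566 CPM. WT replicates 1 and 3 lay among the Pon2-/- samples, while every Pon2-/- sample lay above the WT median. The log2 fold change was 0.29 (95% interval -0.15 to 0.73, edgeR, adjusted p = 1.00, exact permutation p = 0.160). Lyl1 shares 4 exon bases with Nfix on the opposite strand, and the counts carry no strand. Tal1 (ENSMUSG00000028717.12, chromosome 4 from 115056426 to 115071755, plus strand) had 15.1, 25.7 and 46.7 CPM in WT and 3.88, 25.7 and 38.5 CPM in Pon2-/- samples as lowest, median and highest values. The medians were alike, and Pon2-/- replicate 2 lay below all others. Its log2 fold change was -0.07 with an interval of -1.27 to 1.12, and the direction turned to 0.15 without that sample and to 0.17 without WT replicate 6.

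Lmo2 (ENSMUSG00000032698.15, chromosome 2 from 103957986 to 103981878, plus strand), the adaptor of the complex, had 344, 420.3 and 517 CPM in WT and 357, 443 and 646 CPM in Pon2-/- samples. The ranges overlapped from 357 to 517 CPM. Its log2 fold change was 0.14 with an interval of -0.21 to 0.49, and 0.014 without Pon2-/- replicate 4. Gata2 (ENSMUSG00000015053.14, chromosome 6 from 88193891 to 88207032, plus strand), which is needed for the survival and growth of HSCs, had 82.1, 103 and 171 CPM in WT and 86.9, 132 and 184 CPM in Pon2-/- samples. The highest values were those of Pon2-/- replicate 6 and WT replicate 1, the lowest those of WT replicates 5 and 6, and the genotypes overlapped over most of their range. The log2 fold change of Gata2 was 0.29 (-0.23 to 0.80).

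Runx1 (ENSMUSG00000022952.16, chromosome 16 from 92601466 to 92826149, minus strand), which is needed for the emergence of HSCs from endothelium, had 29.4, 84.0 and 102 CPM in WT and 50.0, 86.6 and 196 CPM in Pon2-/- samples. The genotype medians lay close together, with WT replicates 2 and 3 as the lowest and Pon2-/- replicates 5 and 6 as the highest samples. Its log2 fold change was 0.49, with an interval of -0.37 to 1.34, and 0.18 without Pon2-/- replicate 5. Runx1 shares 106 exon bases with the antisense gene Gm26626, which had 56 counts in all samples together.

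The ETS factors differed in how their values were spread. Erg (ENSMUSG00000040732.18, chromosome 16 from 95359169 to 95586593, minus strand) had 69.0, 73.4 and 77.1 CPM in WT and 44.6, 81.5 and 128 CPM in Pon2-/- samples. The whole WT range lay within that of the Pon2-/- samples, and the SD was 2.76 CPM among WT mice and 28.4 CPM among Pon2-/- mice (n = 6 each), and this difference of spread was not tested. The log2 fold change was 0.16 (-0.36 to 0.68). Fli1 (ENSMUSG00000016087.13, chromosome 9 from 32422204 to 32542861, minus strand) had 133, 168 and 209 CPM in WT and 93.9, 130.5 and 174 CPM in Pon2-/- samples. The 3 lowest values were all from Pon2-/- samples and the 3 highest all from WT samples, with overlap between 133 and 174 CPM. Fli1 had the smallest p of the 10 factors, with a log2 fold change of -0.34 (-0.75 to 0.07, edgeR, unadjusted p = 0.0977, adjusted p = 1.00, exact permutation p = 0.0801), which did not pass.

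Gfi1b (ENSMUSG00000026815.14, chromosome 2 from 28609450 to 28621982, minus strand), a repressor that restrains HSC numbers, had 48.8, 96.8 and 261 CPM in WT and 95.2, 153 and 218 CPM in Pon2-/- samples. Its lowest and its highest value were both from WT samples. The log2 fold change was 0.23 (-0.55 to 1.01). Mecom (ENSMUSG00000027684.16, chromosome 3 from 29951296 to 30548008, minus strand), which is needed to keep HSCs quiescent, had 176, 240.1 and 339 CPM in WT and 121, 217 and 293 CPM in Pon2-/- samples. WT replicates 4 and 5 were highest and Pon2-/- replicate 2 was lowest, and the log2 fold change was -0.28 (-0.73 to 0.17). Mecom shares 81 exon bases with its antisense gene Mecomos, which had 694 counts in all samples together. Hlf (ENSMUSG00000003949.16, chromosome 11 from 90336536 to 90390895, minus strand) had 274, 312 and 382 CPM in WT and 227, 366 and 455 CPM in Pon2-/- samples. Pon2-/- samples held both ends of its range, and the log2 fold change was 0.14 (-0.23 to 0.51).

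**Figure D2:**
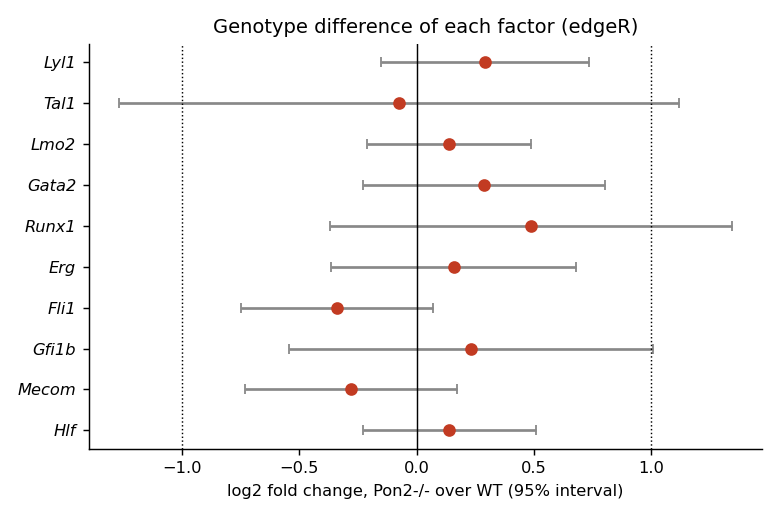
Log2 fold change (Pon2-/- over WT, x axis) of each factor with its 95% interval from edgeR (n = 6 per genotype). The dotted lines mark 2-fold in either direction. Every interval includes 0, and those of Runx1, Tal1 and Gfi1b pass a dotted line.

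Within a single genotype, some factors had other ranges in samples with than in samples without Y-linked counts. In WT, Lyl1 was 342 to 541 CPM in the 3 samples without and 251 to 279 CPM in the 3 samples with Y-linked counts, whereas Pon2-/- samples had 360.4 to 437 CPM (n = 2) and 365 to 566 CPM (n = 4). Gfi1b was 95.3 to 261 CPM without and 48.8 to 98.3 CPM with Y-linked counts in WT, which overlap. In Pon2-/- samples, it was 105 to 152 CPM and 95.2 to 218 CPM. Among the 7 samples with Y-linked counts, the log2 fold change of Pon2-/- over WT was 0.77 (SE 0.20, edgeR, adjusted p = 0.626) for Lyl1 and 1.08 (SE 0.37, edgeR, adjusted p = 0.862) for Gfi1b. Among the 5 samples without them, it was -0.16 (SE 0.24) and -0.52 (SE 0.46), with an adjusted p of 1.00 for both in edgeR. Other factors had separate ranges in a single genotype as well. In WT, Runx1 was 84.7 to 102 CPM with and 29.4 to 83.4 CPM without Y-linked counts. In Pon2-/- samples, Mecom was 208 to 293 CPM with (n = 4) and 121 to 184 CPM without them (n = 2). Tal1 was 24.4 to 38.5 and 3.88 to 20.5 CPM, and Fli1 was 118 to 174 and 93.9 to 114 CPM. In the other genotype, the ranges of these genes overlapped. Runx1 was 60.1 to 196 CPM with and 50.0 to 80.2 CPM without Y-linked counts in Pon2-/- samples. In WT, Mecom was 176 to 339 and 224 to 247 CPM. Tal1 was 24.8 to 46.7 and 15.1 to 27.2 CPM there, and Fli1 was 133 to 209 and 144 to 182 CPM. Pon2-/- replicate 2 had the lowest value of Mecom, Tal1 and Fli1. Runx1, Mecom, Tal1 and Fli1 were named because their ranges did not overlap in the genotype given first. Groups this small can lie apart by chance, and how many of all genes do so was not counted. WT samples without Y-linked counts also had more total counts (19149531 to 24228280) than those with them (12967791 to 16054035). The part of sex in these values was not tested.

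The coefficient of variation of the factors over the 12 samples was 19.9% (Hlf) to 51.9% (Runx1), with a median of 26.4%. The median over all tested genes, which were not matched for level, was 56.8%. The biological coefficient of variation that edgeR estimated was below the trend of genes of like level for 8 of 10 factors, as it was for 63.7% of all tested genes.

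To compare factors with each other, levels were divided by the length of their exons (GENCODE release M21) and given as CPM per kb. Lyl1 (219 ± 58.6) and Lmo2 (203.8 ± 40.8) were highest, followed by Gfi1b (77.7 ± 34.8), Hlf (51.1 ± 10.2), Fli1 (43.9 ± 10.3), Gata2 (22.7 ± 6.72), Erg (22.4 ± 5.69), Mecom (18.7 ± 4.85), Runx1 (7.20 ± 3.74) and Tal1 (5.83 ± 2.57 CPM per kb; SD, n = 12 each). The level per kb of Lyl1 exceeded that of 98.1% and that of Tal1 that of 43.2% of all tested genes. Neighbours in the order of mean log2 levels were compared within each mouse with a two-sided exact permutation test (sign flips over 12 samples, 9 pairs adjusted together). Lmo2 was 2.85-fold above Gfi1b, Fli1 was 1.96-fold above Erg and Mecom was 2.84-fold above Runx1, each in 12 of 12 samples (exact test, adjusted p = 0.00146 for each). For the other 6 neighbours, the difference did not pass. They were Lyl1 and Lmo2, Gfi1b and Hlf (higher in 9 of 12 samples, exact test, adjusted p = 0.0703), Hlf and Fli1, Erg and Gata2, Gata2 and Mecom, and Runx1 and Tal1. Without WT replicate 5, Gfi1b did lie above Hlf (exact test, adjusted p = 0.0154). With the longest transcript of each gene as its length, 5 neighbours differed, Lmo2 came before Lyl1, and Mecom came before Gata2 and Erg. Among those that turned, Runx1 then lay above Tal1 in 12 of 12 samples (1.30 on the log2 scale, exact test, adjusted p = 0.00146). Hlf lay above Fli1 in 9 of 12 (0.40, exact test, adjusted p = 0.0211). Gata2, which had followed Erg, lay above it in 10 of 12 (0.50, exact test, adjusted p = 0.0209). The step below Fli1 then led to Mecom and did not pass (0.19, exact test, adjusted p = 0.152). The level of Runx1 was then 14.8 CPM per kb.

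**Figure D3:**
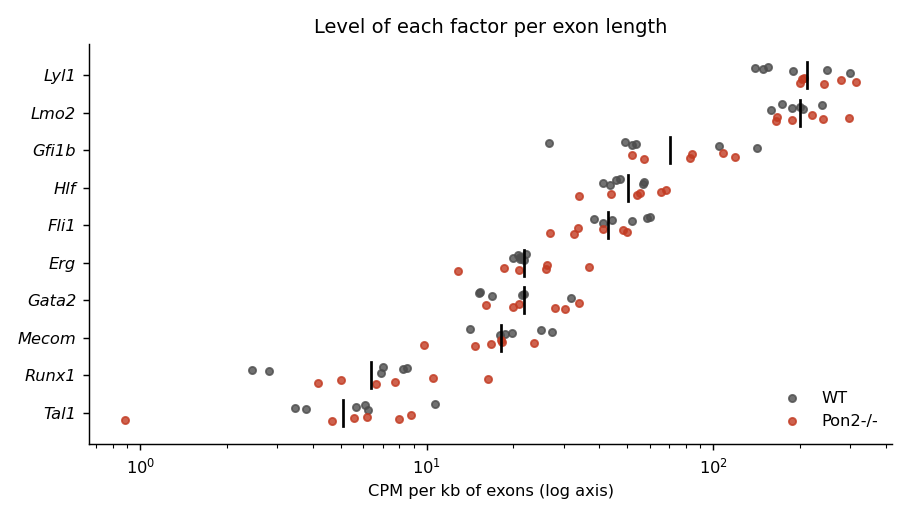
CPM per kb of exons (log axis) of the 10 factors in 6 WT (grey) and 6 Pon2-/- samples (red), ordered by mean log2 level (black bar). Steps that hold in all 12 samples lie between Lmo2 and Gfi1b, between Fli1 and Erg, and between Mecom and Runx1.

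Set against its paralogs in the same mouse, each factor took a share of the summed level per kb of its family, and these shares are descriptions over 12 samples. Lyl1 took 93.6% to 99.6% of the Tal family, Tal1 took 0.441% to 6.43%, and Tal2 had 0 counts. Lmo2 took 89.2% to 98.9% of the LIM-only family, in which Lmo3 had 1 count in all samples together. Gfi1b took 88.1% to 99.98% beside Gfi1, its paralog of the myeloid and lymphoid lineages. Hlf took 58.8% to 98.9% beside the related Nfil3, Tef and Dbp, and Mecom took 67.8% to 95.7% beside Prdm16, another PR domain factor needed by HSCs. Of the Erg group of ETS factors, Fli1 took 52.7% to 73.8% and Erg the rest, with Fev at 0 counts. Gata2 took 48.6% to 83.4% of the GATA family, Gata3 took 4.32% to 51.2%, and Gata1, the factor of erythroid and megakaryocytic cells, took 0% to 43.1%. By exon length, the Runt family was the most even. Runx1 took 15.1% to 47.1%, Runx2 12.2% to 63.7% and Runx3 1.18% to 50.2%. The shares depend on the length used, since Runx1 had 7.20 CPM per kb by exons and 14.8 by its longest transcript. Shares by the longest transcript were not computed.

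Whether the factors varied together among mice was examined with all 45 pairs on log2 CPM over the 12 samples. The sign of r was positive in 25 and negative in 20 pairs, with a median r of 0.05. An unadjusted permutation p below 0.05 was found for 4 pairs, and 1 pair passed after adjustment over all 45. This pair was Gata2 and Fli1, with r = -0.84 (permutation p = 0.00062, adjusted p = 0.0279) and Spearman's rho = -0.85 (permutation p = 0.00089, adjusted p = 0.0401). The 3 samples with the most Fli1 (WT replicates 2, 5 and 6) were among the 4 samples with the least Gata2. Without the 2 samples farthest from the median of Gata2 (Pon2-/- replicate 6 and WT replicate 1), r was -0.93. It was -0.83 in WT and -0.82 in Pon2-/- samples (n = 6 each) and -0.90 in the 7 samples with Y-linked counts, while the 5 without were too few.

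**Figure D4:**
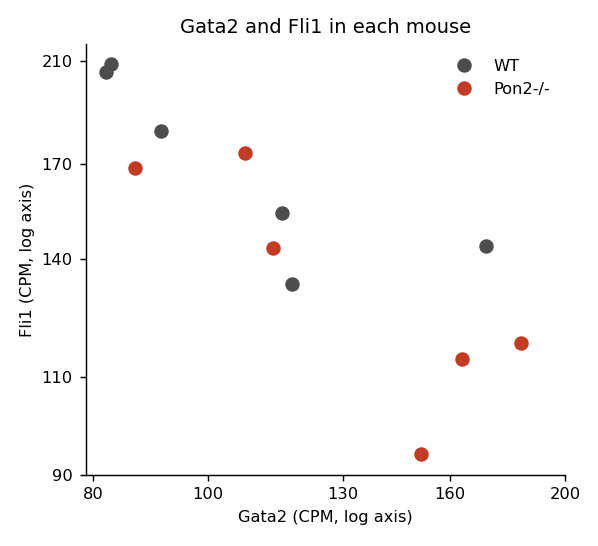
Gata2 against Fli1 (CPM, both axes log) in each mouse, WT in grey and Pon2-/- in red. Fli1 is lower where Gata2 is higher, in both genotypes, with r = -0.84 over the 12 samples.

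The adjusted p of Gata2 and Fli1 depended on single samples. With 1 sample left out, r stayed between -0.81 and -0.90, yet its adjusted p (permutation test) rose above 0.05 for 8 of the 12 samples. It was 0.0738, 0.0643, 0.108 and 0.108 without WT replicates 2, 3, 5 and 6, and 0.0711, 0.0535, 0.0562 and 0.0549 without Pon2-/- replicates 1, 4, 5 and 6. After removal of the genotype means, r was -0.82 (permutation test, adjusted p = 0.0679). Both genes are scaled by the same library total, which all pairs share.

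The other pairs did not pass, and the next 4 by r are given first. Hlf and Erg had r = 0.69 (rho = 0.53, adjusted permutation p of 0.288 for r and 0.445 for rho) and 0.42 without 2 samples. Lyl1 and Gfi1b had r = 0.58 (rho = 0.54), with 0.73 in WT and -0.07 in Pon2-/- samples. Tal1 and Fli1, also at r = 0.58 (rho = 0.34), rested on the samples at the ends of Tal1, since r was -0.16 without Pon2-/- replicate 2 and WT replicate 6. Gata2 and Gfi1b had r = 0.55 (rho = 0.62). For Lyl1 and Gfi1b, Tal1 and Fli1, and Gata2 and Gfi1b, the adjusted permutation p of r was 0.535 each, and that of rho was 0.445, 0.756 and 0.340. By rho, Runx1 and Tal1 (rho = 0.72, r = 0.54) and Tal1 and Erg (rho = 0.70, r = 0.25) came next after Gata2 and Fli1, with an adjusted permutation p of 0.215 for rho in both and of 0.535 and 0.779 for r. Tal1 and Lyl1, the paralogs of the complex, had r = -0.02.

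**Figure D5:**
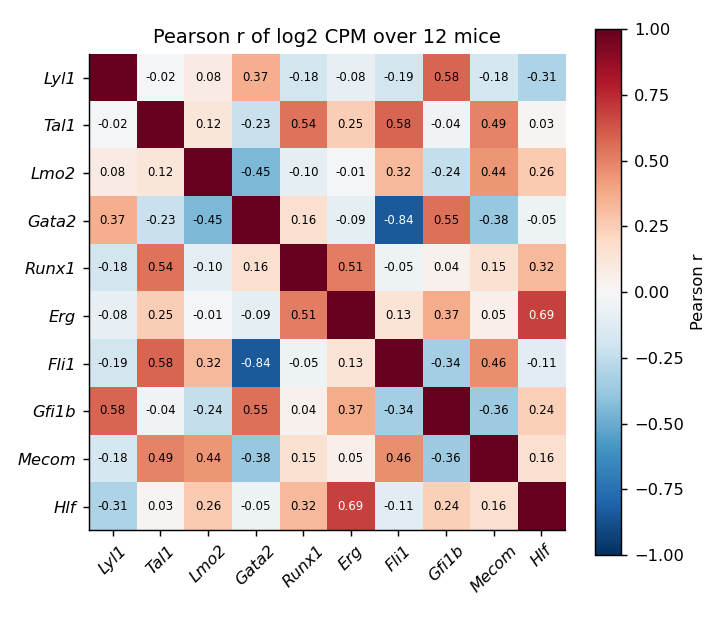
Pearson r of log2 CPM over the 12 samples for each pair of factors, from blue (-1) to red (1). Gata2 and Fli1 at -0.84 are the only pair that passed the permutation test after adjustment over 45 pairs.

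Over all tested genes, the gene most like each factor was named by Pearson's r of log2 CPM over 12 samples, as a description. It was 2900026A02Rik for Tal1 (r = 0.96), Dnaja1 for Erg (0.93), Elp3 for Gfi1b (0.93), Dhx8 for Mecom (0.92), Gm5814 for Gata2 (0.91), Ncoa3 for Lyl1 (0.89), Dnajc21 for Runx1 (0.89), Sec62 for Hlf (0.88), Ankrd17 for Lmo2 (0.88) and Gm42690 for Fli1 (0.87). Gm5814 had a mean of only 0.706 CPM. For 0 of the 10 factors was the most alike gene another factor of the list. The listed factors are a small part of the 11848 tested genes, so this count says little about them. The highest r among so many genes can be high for unrelated genes too.

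Genes that work with the factors were taken from lists, and edgeR called 0 of them after adjustment in either direction, as did limma voom. Among 21 partners and cofactors, 1 had an unadjusted p below 0.05 in edgeR, against 3.13% of all tested genes. This was Ssbp4, which binds Ldb1 in the Lmo2 complex. Its lowest, median and highest values were 24.5, 41.3 and 50.9 CPM in WT and 27.3, 71.7 and 174 CPM in Pon2-/- samples, which overlapped. The log2 fold change was 1.10 (SE 0.39, edgeR, adjusted p = 1.00). Next were Sin3a at 0.44 (SE 0.25) and Hdac1, a histone deacetylase, at 0.29 (SE 0.22). Log2 fold changes of the 21 genes were above 0 for 10 and below 0 for 11, with a median of -0.01.

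Of 14 paralogs of the factors, 11 were tested, 3 with log2 fold changes above and 8 below 0 (median -0.21), and 0 had an unadjusted p below 0.05. Those with the smallest p were Gata3 at -0.74 (SE 0.47), Prdm16 at -0.57 (SE 0.41) and Runx2 at 0.60 (SE 0.43). The Id genes encode proteins that keep E proteins from pairing with Tal1 and Lyl1. Id1 had a log2 fold change of -0.46 (SE 1.24) and Id2 of -0.47 (SE 0.89). Id3 and Id4 had too few counts for edgeR, with 0 counts in WT and 473 counts in 2 Pon2-/- samples for Id3, and 6 counts in 1 Pon2-/- sample for Id4.

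A list of 30 other transcription factors of HSCs held 3 with an unadjusted p below 0.05 in edgeR, against 3.13% of all tested genes. Mycn, a Myc family gene that acts with Myc in HSC growth and survival, was 128, 166 and 372 CPM in WT and 73.9, 107 and 136 CPM in Pon2-/- samples as lowest, median and highest values. The genotypes overlapped between 128 and 136 CPM, and its log2 fold change was -1.04 (SE 0.29, edgeR, adjusted p = 0.716). Ikzf1, the zinc finger factor Ikaros of lymphoid differentiation, was 36.1, 57.8 and 72.4 CPM in WT and 78.2, 83.6 and 120.0 CPM in Pon2-/- samples. Ikzf1 was the 1 gene of the list whose genotypes did not overlap, against 0.633% of all tested genes. Its log2 fold change was 0.77 (SE 0.25, edgeR, adjusted p = 1.00). Any gene without overlap has the smallest exact permutation p possible (0.00216, adjusted 0.342 for Ikzf1). Stat5b, a signal transducer of cytokine receptors, was 13.1, 37.1 and 42.7 CPM in WT and 40.8, 58.9 and 72.9 CPM in Pon2-/- samples, with a log2 fold change of 0.86 (SE 0.35, edgeR, adjusted p = 1.00). DESeq2 called 3 listed genes with default settings: Ikzf1 (0.78, SE 0.22, adjusted p = 0.0295), Mycn (-1.04, SE 0.31, adjusted p = 0.0407) and Id3, of whose 473 counts all lie in 2 samples. Over all alternatives, the adjusted p was 0.0144 to 1.00 for Ikzf1 and 0.0207 to 1.00 for Mycn. Among the 7 samples with and the 5 without Y-linked counts, the log2 fold change was 0.99 and 0.60 for Ikzf1 and -1.05 and -1.01 for Mycn. The median log2 fold change of the 30 genes was -0.05.

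Of 19 target genes of these factors, 16 were tested, 8 in each direction with a median log2 fold change of 0.09, and 0 had an unadjusted p below 0.05 in edgeR. Among the smallest p were those of Tgfbr3, a receptor for TGF-β (log2 fold change -1.29, SE 0.68), and Cd34, a surface protein of progenitors (0.34, SE 0.24). Among 12 lineage factors, 6 had enough counts, with 4 above and 2 below 0. Klf1, the master factor of erythroid genes, was detected in 6 of 12 samples with 0 to 2.22 CPM in WT and 0 to 23.4 CPM in Pon2-/- samples, and its log2 fold change of 3.60 had an interval of -0.68 to 7.88. Gata3 is given above, and Spi1, the factor PU.1 of myeloid and B cells, had 0.52 (SE 0.46). By edgeR, 0 of these 6 had an unadjusted p below 0.05.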

How the data were processed

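The 12 samples were grouped by the genotype in the labels. Per the labels and the study's methods, the authors checked reads with FastQC 0.11.5, trimmed adapters with Trimmomatic 0.36, mapped them to GRCm38.p5 with STAR 2.5.3a and deposited 1 table of raw counts per gene of GENCODE release M12 and mouse. Which of STAR's count columns was kept is not given in the sources used here. Each table has 1 row without a gene, which was left out. Names and exon lengths came from GENCODE release M21, which named 49326 of 49585 genes, and all 156 listed symbols matched 1 gene each.

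Counts were compared in R 4.3.3 with edgeR 4.0.16 (TMM, filterByExpr, glmQLFit and glmQLFTest, genotype only), DESeq2 1.42.0 and limma 3.58.1, at a Benjamini-Hochberg adjusted p below 0.05. The common biological coefficient of variation was 99.2%. The edgeR fit, the exact permutation test between genotypes and the permutation test of pairs were tried on simulated data. Log2 CPM used a prior count of 2. Levels and single genes were compared with exact permutation tests, and pairs with 100000 permutations, in Python 3.11.15 with scipy 1.17.1. A count of 0 allows up to 3 counts, or 0.121 to 0.235 CPM, for counting error only. The alternatives were DESeq2's size factors, other filters on low counts, robust estimation, a replicate block, a Y-linked covariate, subsets by Y-linked counts (chosen after seeing the data) and leaving out each sample.

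The factors and gene lists were chosen with earlier results of these data known. Genes named beside the 10 factors were those of each list with an adjusted p below 0.05, without overlap of the genotypes, or with one of the 3 smallest p, and 1 gene so chosen is not reported here. The targets, partners and markers are from general knowledge, and some genes are in more than 1 list. Same-numbered samples of the genotypes were not treated as pairs, since their deviations correlated at only 0.000932 to 0.043. Each sample is a separate mouse.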

Additional observations from a re-analysis of the deposited data

Results flagged for a closer look

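Tal1 in Pon2-/- replicate 2 was 3.88 CPM (90 counts), compared with 20.5 to 38.5 CPM in the other 5 mice of this genotype. On log2 CPM, its gap to the next sample was 0.723 of the range of the group, above Dixon's critical value of 0.625 for 6 samples. Of 20 groups of 6 values tested this was the 1 that stood out, and chance gives about 1 in 20. The same sample also had the lowest values of Mecom and Fli1 among the 12, and its cause was not tested.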

How the results depend on the processing

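All 10 factors stayed without a call under the 24 alternatives run. Of 230 log2 fold changes of the factors under 23 settings, 222 kept their direction and 8 reversed, and the lowest adjusted p was 0.460 (Fli1, no filter beyond 1 read). The reversed values were 0.17 and 0.15 for Tal1 without WT replicate 6 and without Pon2-/- replicate 2 (-0.24 to 0.17 leaving out each sample), -0.016 for Erg without Pon2-/- replicate 5 (-0.016 to 0.28), and, in the 5 samples without Y-linked counts, -0.11 for Hlf, -0.071 for Lmo2, -0.16 for Lyl1, -0.32 for Erg and -0.52 for Gfi1b. Of 366 values of the 16 other genes chosen by rule, 360 stayed alike, 4 passed (Mycn and Ikzf1, both DESeq2 settings) and 2 reversed, -0.17 for Hdac1 and 1.53 for Id1, both in the samples without Y-linked counts. DESeq2 called 3 listed genes by default and 3 with Cook's cutoff off, and edgeR 0 whichever sample was left out. With the longest transcript as length, 5 neighbouring levels differed instead of 3, in an order with partly other neighbours. When 1 sample was left out, 3 to 4 differed. After removal of the genotype means, 0 pairs of factors passed, and 0 to 1 did when 1 sample was left out. Leaving out each sample moved the log2 fold change of Gata2 between 0.18 (without Pon2-/- replicate 6) and 0.46 (WT replicate 1), of Runx1 between 0.18 (Pon2-/- replicate 5) and 0.62, of Hlf between 0.058 (Pon2-/- replicate 6) and 0.24 (Pon2-/- replicate 1), of Lmo2 between 0.014 (Pon2-/- replicate 4) and 0.21, of Lyl1 between 0.20 and 0.45 (WT replicate 1), of Gfi1b between 0.057 (WT replicate 5) and 0.55 (WT replicate 1), of Mecom between -0.41 and -0.17 (Pon2-/- replicate 2) and of Fli1 between -0.43 and -0.25. The cause of these moves was not tested, except that subsets hold fewer samples.

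With the replicate block, 0 factors and 0 listed genes were called, and 5 of all genes instead of 25, while only 1 of the 6 samples was best matched by its own number. Of all genes, edgeR called 8 with no filter beyond 1 read, 34 when a minimum of 10 reads was asked of all samples of 1 genotype, and 20 to 28 without 1 sample. DESeq2 called 322, and 970 without Cook's cutoff. The factors' own biological coefficients of variation were 24.01% to 69.0%. An absent call does not show equal levels, and the intervals of Runx1, Tal1 and Gfi1b leave room for changes above 2-fold.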
